A study of Homo sapiens with 6 samples.

Results

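A set of 9 genes of the p53 response was followed through the RNA-seq libraries of KHM-5M, a cell line from an anaplastic thyroid cancer. They were picked by name from the deposited gene table: CDKN1A, MDM2, GDF15, TP53I3, BTG2, RRM2B, SESN1, ZMAT3 and TP53INP1, 9 of 17687 genes in all. All 9 passed the filter on low counts and are among the 14005 genes that were tested. The study asked how sodium selenite (SS), a selenium salt that reacts with cellular thiols and gives rise to reactive oxygen species, acts on thyroid cancer cells, and whether the thiol N-acetylcysteine (NAC), a scavenger and cysteine source, changes that response. The control group received PBS, the SS group sodium selenite, and the SS+NAC group NAC together with sodium selenite. All cells were of this 1 line and were grown in RPMI-1640 with fetal bovine serum. Each group had 2 libraries, described in the study as biological replicates, and there was no group treated with NAC alone. The sample labels give neither a dose with its unit nor an exposure time.

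The transcription factor p53 is held at a low level in unstressed cells because MDM2, itself made from a p53 target gene, attaches ubiquitin to it and marks it for the proteasome. DNA damage, oxidants and other stresses stabilize p53, which then binds paired decamer elements near its target genes. These targets stop the cell cycle, repair DNA, limit oxidants, shut p53 off again or start apoptosis. Anaplastic thyroid cancer is the undifferentiated form of thyroid cancer. Several of the 9 genes also answer to other factors, and GDF15 in particular is known to be raised by ATF4 and CHOP in the integrated stress response.

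The libraries held between 17645545 and 23810056 expected counts. Levels are given as CPM, counts scaled to library size with TMM, which compare libraries, or as TPM, which also divide by transcript length and compare genes. A gene was called where edgeR's quasi-likelihood test, fitted to all 6 libraries, gave a Benjamini-Hochberg adjusted p of at most 0.05. In SS the change of a gene followed its length: in 8 bins of equal gene number, the median log2 fold change of SS against control ran from 0.46 in the bin of the shortest transcripts (up to 1407 bases) to -0.46 in the bin of the longest (from 6088 bases). In SS+NAC against control the same bins lay between -0.02 and 0.02. The tests were therefore also run with a length offset, which removes this trend from every library. Whether the trend is technical or biological was not tested. As for the cell type, PAX8, a thyroid transcription factor, stood at 253 to 278 CPM and the keratins KRT8 and KRT18 at 831 to 1623 and 502 to 1024 CPM. Both keratins were higher in SS than in the control (edgeR adjusted p = 0.0111 and 0.0152), but were not called with the length offset. In SS against SS+NAC they were 1.57-fold and 1.64-fold higher (edgeR adjusted p = 0.0023 and 0.0013, and 0.0235 and 0.0246 with the offset). The epithelial genes EPCAM (3.88 to 5.22 CPM), KRT19 (0.665 to 1.87 CPM) and CDH1 (0.362 to 0.697 CPM) were low. Thyroglobulin (TG, 0.952 to 1.39 CPM) was also low, and NKX2-1 (at most 0.228 CPM) was near 0. Of the markers of blood, endothelial and stromal cells, CD3E, CDH5, COL1A2 and DCN were at or near 0, PTPRC (0.373 to 0.582 CPM), PECAM1 (0.5 to 1.23 CPM) and CD14 (0.945 to 2.01 CPM) were low, and COL1A1 stood at 580 to 789 CPM. Because the RNA came from bulk cultures, fewer cells that express a gene and less of its RNA per cell cannot be told apart.

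The promoters of CDKN1A, MDM2 and GDF15, the genes on which the results turn, are shown as the 250 bases before a RefSeq start (GRCh38.p14, plus strand). For 7 of the 9 genes start sites were taken from a table of RefSeq promoters. The promoters of RRM2B and TP53INP1 were left out of the search, so nothing is said about their elements. CDKN1A (chr6:36678464-36678713) has 4 copies of GGGCGG, the box bound by SP1 and related factors, at bases -104, -94, -45 and -40, with the pair nearest to the start sharing a base. MDM2 has 4 annotated starts, and the third (chr12:68808767-68809016) is downstream of the first and preceded by a p53 full site. GDF15 (chr19:18385908-18386157) has a TATAAA box at bases -29 to -24 and 2 copies of GGGCGG, of which one is on the other strand. Capitals mark these boxes in CDKN1A and GDF15 and, in MDM2, the p53 site found by the search described below. Elements that lack the central C or G of a decamer were not searched for and are not marked.
CDKN1A: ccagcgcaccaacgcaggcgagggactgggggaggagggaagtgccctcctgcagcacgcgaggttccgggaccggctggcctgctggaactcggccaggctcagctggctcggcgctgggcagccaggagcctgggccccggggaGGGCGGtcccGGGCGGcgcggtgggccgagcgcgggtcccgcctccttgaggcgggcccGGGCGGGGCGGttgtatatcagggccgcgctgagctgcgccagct
MDM2: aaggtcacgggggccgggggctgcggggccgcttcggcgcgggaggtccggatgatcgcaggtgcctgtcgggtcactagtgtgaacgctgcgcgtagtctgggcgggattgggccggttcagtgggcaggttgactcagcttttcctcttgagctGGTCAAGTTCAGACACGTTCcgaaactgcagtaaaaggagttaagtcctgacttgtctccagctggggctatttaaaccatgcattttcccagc
GDF15: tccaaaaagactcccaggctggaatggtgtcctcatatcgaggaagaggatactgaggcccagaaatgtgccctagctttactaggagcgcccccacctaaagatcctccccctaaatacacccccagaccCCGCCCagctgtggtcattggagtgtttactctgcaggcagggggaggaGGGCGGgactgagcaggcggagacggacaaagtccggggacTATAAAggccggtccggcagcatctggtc

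A p53 full site was searched as 20 bases in the windows from 250 bases before to 50 bases after each start, with at most 3 mismatches to the p53 consensus and the central C and G kept in each decamer. The consensus reads alike on both strands. Such a site was in 1.12% of 35116 RefSeq windows (392 windows) and in windows of 3 of the searched genes, MDM2, GDF15 and SESN1. The MDM2 site at chr12:68808923-68808942 has 2 mismatches and lies at bases -94 to -75 of the third start. The GDF15 site at chr19:18386186-18386205 has 3 mismatches and lies just after the start, at bases 29 to 48. The SESN1 site at chr6:109009018-109009037, read on the minus strand, has 3 mismatches. It lies at bases -49 to -30 of the most downstream of the 3 annotated SESN1 starts. They are shown because these 3 genes have a p53 full site in the window and, without the length offset, were not called in SS against control.
MDM2: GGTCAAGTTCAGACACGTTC
GDF15: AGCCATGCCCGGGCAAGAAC
SESN1: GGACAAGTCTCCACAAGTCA
GGGCGG (either strand) was in 45.0% of all windows, TATAAA in 11.5% and the AP-1 element TGANTCA in 7.71%. Among the searched genes the last was found only before the third and the fourth MDM2 start. TGATGNAA, a form of the element bound by CHOP and ATF4 dimers, was in 3.62% of windows and in none of those of the searched genes. CDKN1A had no p53 full site in its window, and the p53 elements it is known for lie further upstream than the window reaches. A match is a run of letters and not a measured binding event.

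In the control cells the 9 genes spanned a wide range of levels. Ordered by TPM (mean ± SD, n = 2), TP53I3 stood at 16 ± 1.10, CDKN1A at 13.2 ± 0.127, RRM2B at 11.7 ± 1.08 and MDM2 at 9.13 ± 0.785. ZMAT3 at 2.75 ± 0.00707, SESN1 at 2.16 ± 0.269, GDF15 at 1.61 ± 0.594, BTG2 at 1.06 ± 0.0636 and TP53INP1 at 0.525 ± 0.106 followed. The first gene was just above the median of all tested genes, 15.2 TPM, and the other 8 were below it. In this order GDF15 differed from its neighbours SESN1 and BTG2 by less than its own SD, and the other neighbours differed by more than the larger of their SDs.

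**Figure D1:**
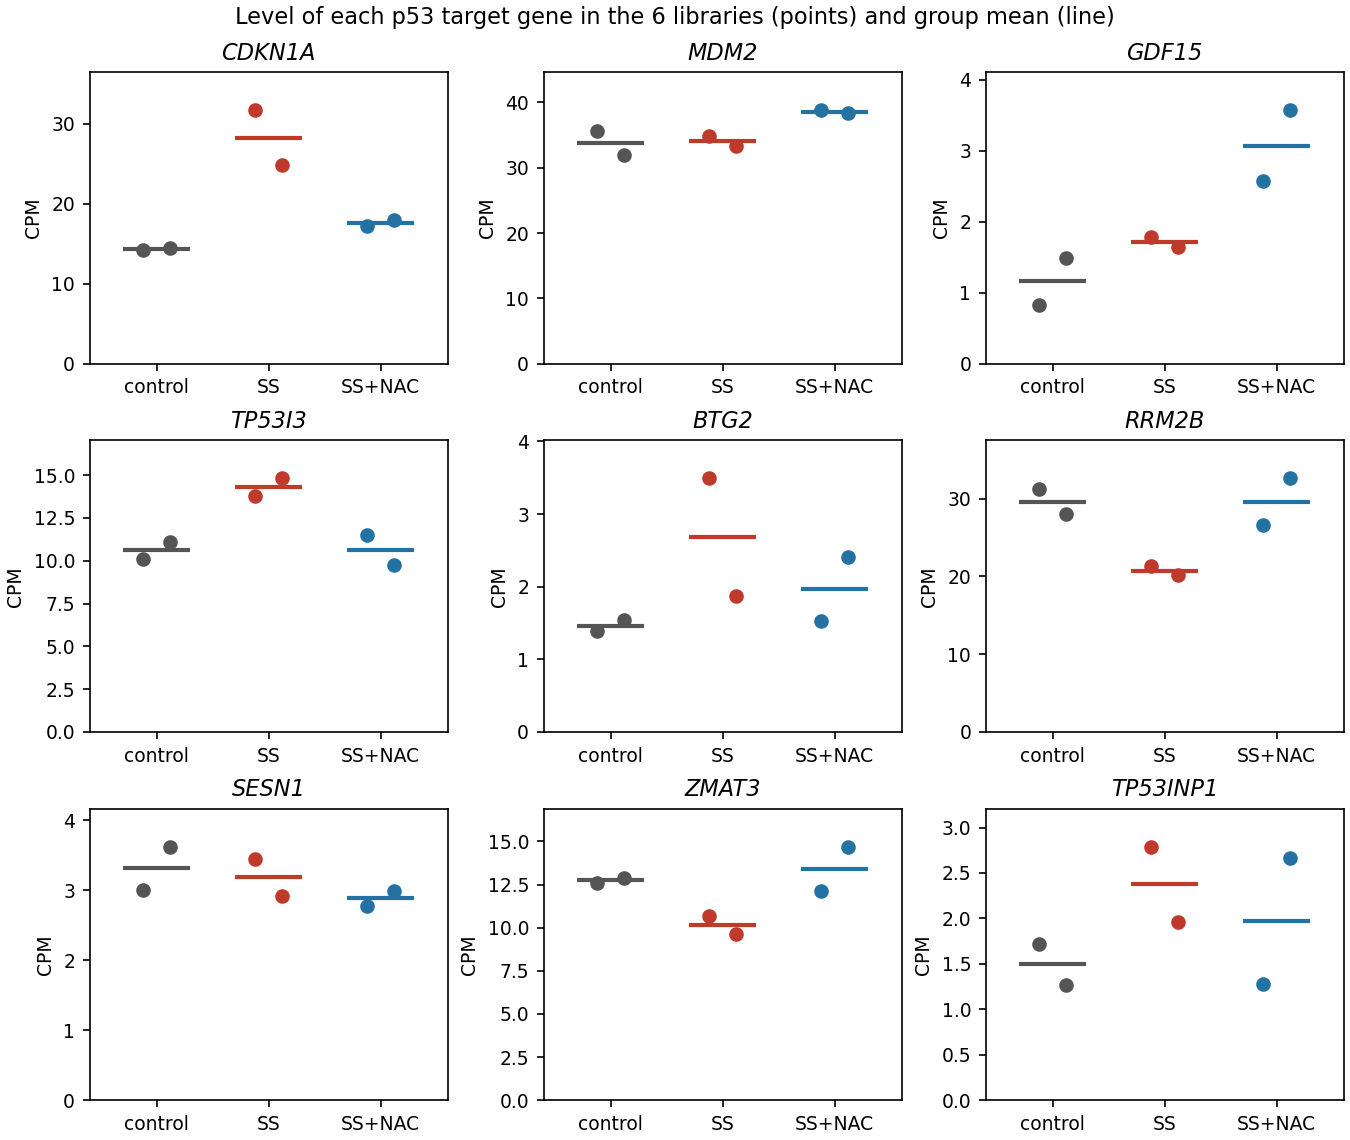
Level (CPM, linear axes from 0) of each of the 9 p53 target genes in the 6 libraries, with points for libraries and lines for group means. CDKN1A was highest in both SS libraries (31.7 and 24.8 CPM), whereas GDF15 was highest in both SS+NAC libraries (2.57 and 3.57 CPM).

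With SS alone, CDKN1A and TP53I3 rose and RRM2B fell compared to the control group, and 6 of the 9 genes did not pass the test. The 3 called genes are 33.3% of the 9, against 40.0% of all tested genes in this comparison (5609 of 14005). By direction these were 2 higher beside 18.6% of all tested genes, and 1 lower beside 21.4%. The median log2 fold change of the 9 was 0.43, beside 0.00 over all tested genes. With the length offset 2 of the 9 were called, CDKN1A and MDM2, both higher in SS, against 9.23% of all tested genes (4.19% higher and 5.03% lower), and the median of the 9 was 0.20. CDKN1A was the gene of the 9 that was called in both fits.

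When SS alone was set against SS+NAC, 5 of the 9 genes were called, against 42.7% of all tested genes (19.6% higher and 23.1% lower in SS). CDKN1A and TP53I3 were higher in SS alone, while GDF15, RRM2B and ZMAT3 were lower. Under the offset the calls were CDKN1A, higher in SS, and GDF15, lower in SS, against 14.4% of all tested genes (7.04% higher and 7.38% lower). SS+NAC against control gave 1 call among the 9, GDF15, against 2.01% of all tested genes (1.36% higher and 0.657% lower). With the offset edgeR called 0 of the 9 there, with 2 at an unadjusted p of at most 0.05 and 0 called by DESeq2 without the offset, against 2.01% of all tested genes (1.35% higher and 0.664% lower). These comparisons share libraries, so their values are not independent of each other.

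**Figure D2:**
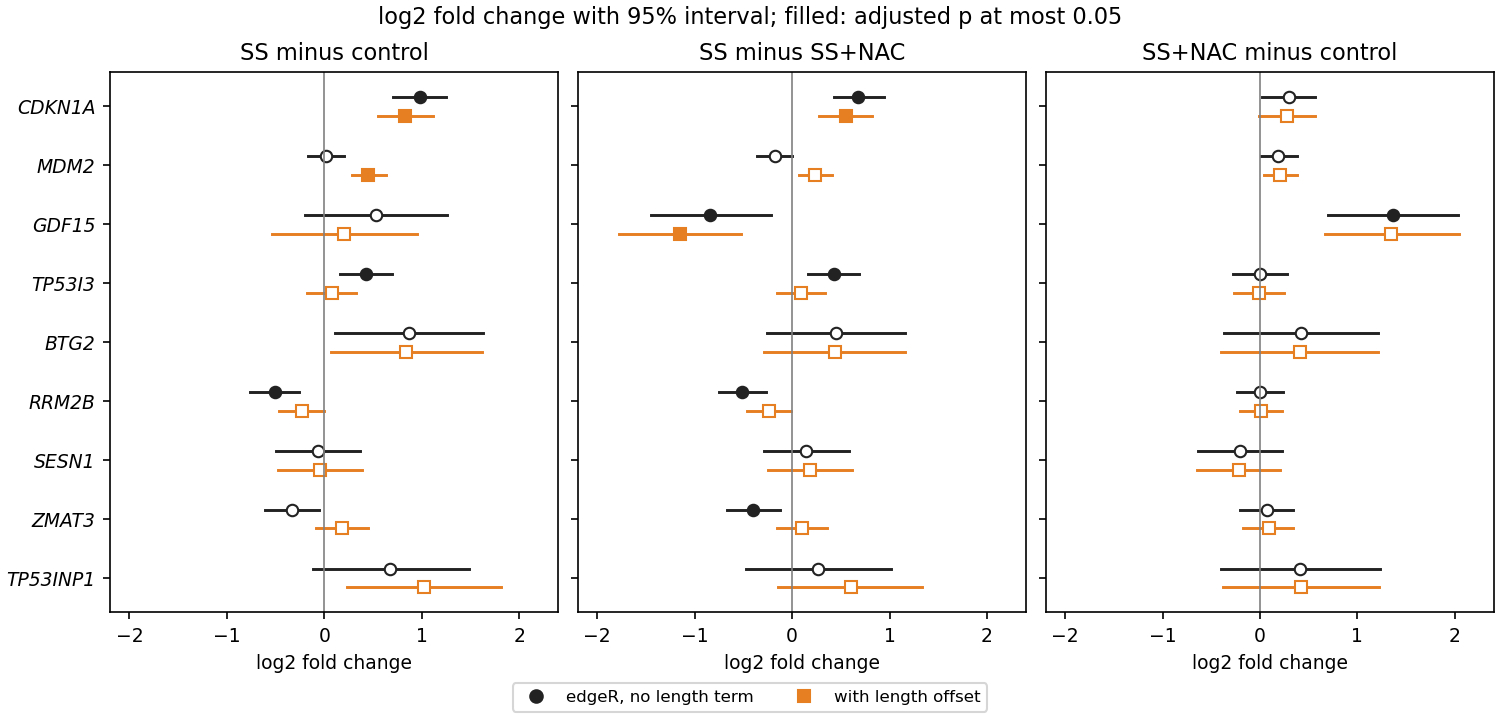
log2 fold change of each gene with its 95% interval in the 3 comparisons, from edgeR without a length term (circles) and with the length offset (squares), filled where the adjusted p was at most 0.05. In SS minus control the offset moved MDM2 from 0.02 to 0.45 and TP53I3 from 0.43 to 0.08, whereas CDKN1A went from 0.98 to 0.83.

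CDKN1A encodes p21, the inhibitor of cyclin-dependent kinases that carries out the arrest in G1 ordered by p53. The gene (NCBI gene 1026) is on the plus strand at chr6:36676460-36687339 in GENCODE release 29 on GRCh38, and its promoter is the first sequence shown above. The antisense gene DINOL overlaps 146 of its exon bases, and since the counting is not stated to use strand, reads there cannot be told apart. Its level was 14.2 and 14.5 CPM in the control libraries, 31.7 and 24.8 CPM in the SS libraries, and 17.2 and 18.0 CPM in the SS+NAC libraries. Both SS libraries stood above all others, and the groups did not overlap in any comparison. In SS against control the log2 fold change was 0.98 (SE 0.121, 1.97-fold, edgeR adjusted p = 0.000312). Against SS+NAC it was 0.68 (SE 0.116, 1.61-fold, edgeR adjusted p = 0.00126). SS+NAC against control gave 0.30 with a 95% interval from 0.02 to 0.57, which did not pass the correction (edgeR adjusted p = 0.278). Leaving out any 1 library kept CDKN1A called in SS against control, with log2 fold changes from 0.79 to 1.14. Under the offset it was 0.83 against control (edgeR adjusted p = 0.0043) and 0.55 against SS+NAC (edgeR adjusted p = 0.0162). The offset call against SS+NAC was lost without SS replicate 1, the library with the higher level, where the value was 0.35 (edgeR adjusted p = 0.0982).

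BTG2 is an antiproliferative gene that slows the passage from G1 to S phase and helps to shorten the poly(A) tails of mRNA. It is at chr1:203305491-203309602 on the plus strand. It stood at 1.39 and 1.54 CPM in the control, 3.49 and 1.87 CPM in SS, and 1.53 and 2.41 CPM in SS+NAC. The SS libraries were both above the control, but they differed from each other by more than the control and the lower SS library did. At 25 to 80 counts per library, the log2 fold change of SS against control was 0.87 with a 95% interval from 0.11 to 1.63 (edgeR adjusted p = 0.0672). It passed the threshold without SS replicate 2 (1.24, edgeR adjusted p = 0.0239) and without either SS+NAC library (0.87 in both, edgeR adjusted p = 0.0246 and 0.0273). Without SS replicate 1, the library with the higher level, it was 0.35 (edgeR adjusted p = 0.513), so the size of the difference rests on that library. The length offset left it at 0.84 (edgeR adjusted p = 0.165). In SS against SS+NAC the value was -0.07 without SS replicate 1 and 0.82 without SS replicate 2. With all libraries it was 0.45 (95% interval -0.26 to 1.16, and 0.44 with the offset), and SS+NAC against control gave 0.42 (-0.37 to 1.21). The latter was 0.71 without SS+NAC replicate 1 and 0.06 without SS+NAC replicate 2, and neither was called (edgeR adjusted p = 0.243 and 0.97).

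MDM2, the ubiquitin ligase that closes the feedback loop on p53, did not follow CDKN1A in the counts as they stand. The gene (NCBI gene 4193) is on the plus strand at chr12:68808176-68850686, and other annotated genes share some of its exon bases, with 785 in the largest overlap. It stood at 35.7 and 31.9 CPM in the control, 34.9 and 33.3 CPM in SS, and 38.8 and 38.4 CPM in SS+NAC. The SS libraries lay within the range of the control libraries, and both SS+NAC libraries were above the rest. SS against control gave a log2 fold change of 0.02, with a 95% interval from -0.17 to 0.20 (edgeR adjusted p = 0.907). MDM2 has one of the longest transcripts of the 9, with an effective length of 7206 bases. In that length bin the median of all genes was -0.46, and with the length offset MDM2 was higher in SS by 0.45 (95% interval 0.28 to 0.63, edgeR adjusted p = 0.00718). With the offset the call was lost without control replicate 2 (0.38, edgeR adjusted p = 0.093), SS replicate 1 (0.45, edgeR adjusted p = 0.0603) or SS replicate 2 (0.45, edgeR adjusted p = 0.0593). SS against SS+NAC gave -0.18 without and 0.24 with the offset, and neither was called (edgeR adjusted p = 0.105 and 0.0605), the latter only without SS+NAC replicate 1 (0.26, edgeR adjusted p = 0.0395). SS+NAC against control gave 0.19 (95% interval 0.01 to 0.38, edgeR adjusted p = 0.285).

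TP53I3 (PIG3) encodes a quinone oxidoreductase linked to oxidant formation in p53-driven apoptosis. It is on the minus strand at chr2:24077433-24085861 and shares 80 exon bases with FAM228B on the other strand. The libraries stood at 10.1 and 11.1 CPM in the control, 13.8 and 14.8 CPM in SS, and 11.5 and 9.72 CPM in SS+NAC. Both SS libraries were above the other 4. The log2 fold change was 0.43 against control (SE 0.123, 1.35-fold, edgeR adjusted p = 0.018) and 0.43 against SS+NAC (SE 0.120, edgeR adjusted p = 0.0155). Its transcript of 1309 bases is among the shortest of the tested genes, where the median change was 0.46. Under the offset the values were 0.08 and 0.09, and neither was called (edgeR adjusted p = 0.728 and 0.624). DESeq2 gave 0.43 against control with an adjusted p of 0.0523, and the edgeR call was lost without control replicate 1 or SS replicate 2 (adjusted p = 0.134 and 0.109). The call against SS+NAC was lost without SS replicate 2 or SS+NAC replicate 2 (edgeR adjusted p = 0.102 and 0.0781).

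TP53INP1 encodes a nuclear and autophagy protein that promotes phosphorylation of p53 by HIPK2 and cell death. The gene is on the minus strand at chr8:94925972-94949411, and it was the least abundant of the 9 per length. It stood at 1.72 and 1.27 CPM in the control, 2.79 and 1.96 CPM in SS, and 1.28 and 2.66 CPM in SS+NAC. The SS+NAC libraries spanned nearly the whole range of the other 4. SS against control gave 0.68 (95% interval -0.12 to 1.49, edgeR adjusted p = 0.159), and 1.02 with the length offset (edgeR adjusted p = 0.106). Without SS replicate 1 the value without the offset was 0.41 (edgeR adjusted p = 0.534). The offset value was called without either SS+NAC library (1.02, edgeR adjusted p = 0.0193 and 0.0245). SS against SS+NAC gave 0.27 (95% interval -0.47 to 1.02), and 0.60 with the offset, which was called only without SS+NAC replicate 2 (1.19, edgeR adjusted p = 0.0451). Without SS+NAC replicate 1 the value of SS against SS+NAC was -0.16, and 0.18 with the offset. Differences inside the 95% intervals were not detectable with 2 libraries in each group and 28 to 64 counts per library.

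ZMAT3 encodes a zinc finger protein that binds RNA and mediates part of the tumour suppression by p53 through splicing and mRNA stability. It is on the minus strand at chr3:179017223-179072279 and has the longest transcript of the 9, with an effective length of 9150 bases. It stood at 12.6 and 12.9 CPM in the control, 10.7 and 9.64 CPM in SS, and 12.1 and 14.7 CPM in SS+NAC. The SS libraries were the lowest of the 6. SS against control gave -0.33 (SE 0.127, edgeR adjusted p = 0.0627), and SS was lower than SS+NAC by a log2 fold change of -0.40 (SE 0.125, 1.32-fold, edgeR adjusted p = 0.0261). Both turned to the other side of 0 with the length offset, at 0.18 and 0.10, and were not called (edgeR adjusted p = 0.373 and 0.607). With the compared libraries only and no offset, the difference from control was called (-0.33, edgeR adjusted p = 0.0278). Without the offset, the difference from control was called without either SS+NAC library (edgeR adjusted p = 0.0244 and 0.0242), and that from SS+NAC was lost without control replicate 2, SS replicate 2 or SS+NAC replicate 2 (-0.37, -0.32 and -0.25, edgeR adjusted p = 0.0511, 0.165 and 0.16), with the compared libraries only (edgeR adjusted p = 0.0554) and by DESeq2 (adjusted p = 0.1).

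**Figure D3:**
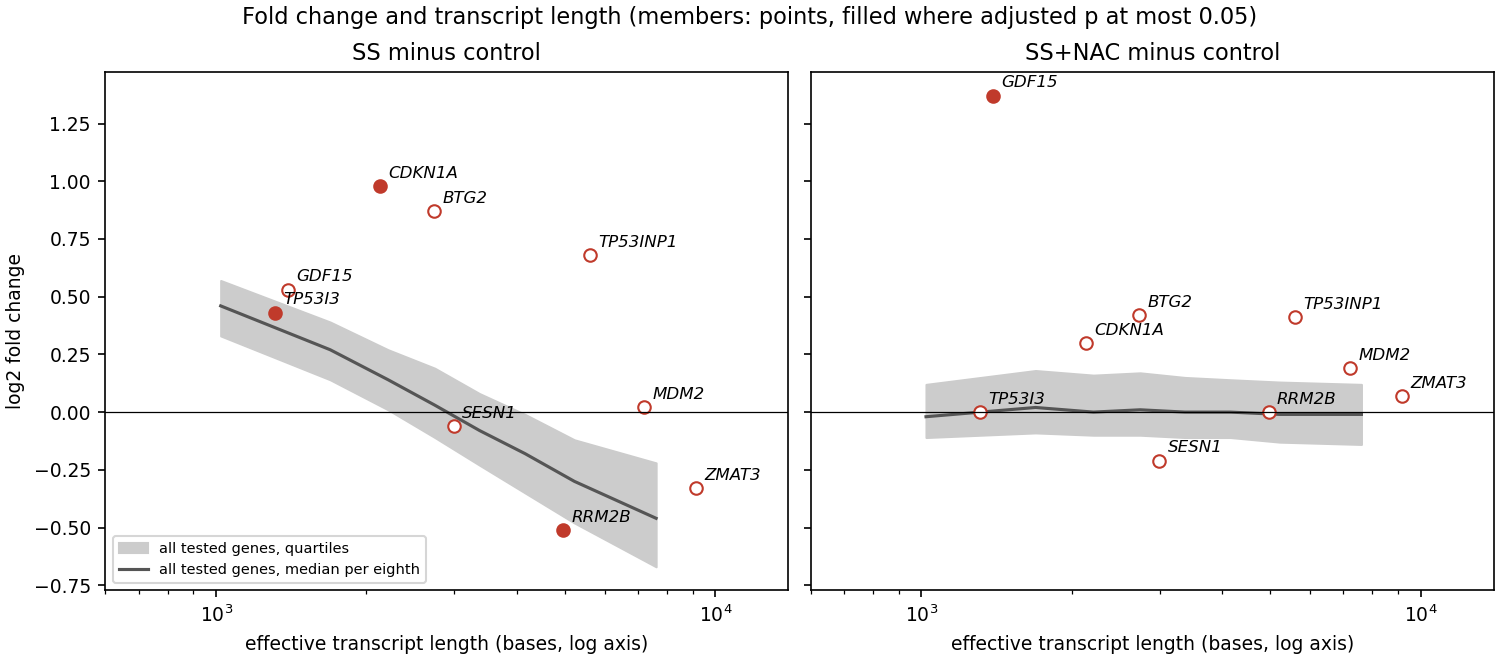
log2 fold change of the 9 genes (points, filled where called) against effective transcript length (bases, log axis), with the median and quartiles of all tested genes in 8 length bins. In SS minus control TP53I3 (0.43 at 1309 bases) lay close to the falling line of all genes and CDKN1A (0.98 at 2133 bases) above it, while in SS+NAC minus control the line was flat and GDF15 stood at 1.37.

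RRM2B (p53R2) encodes the ribonucleotide reductase subunit that supplies deoxynucleotides for DNA repair and mitochondrial DNA outside S phase. It is on the minus strand at chr8:102204502-102239118. It stood at 31.2 and 28.0 CPM in the control, 21.3 and 20.2 CPM in SS, and 26.6 and 32.6 CPM in SS+NAC. Both SS libraries were below the other 4. Its level fell in SS compared to the control, with a log2 fold change of -0.51 (SE 0.111, 1.42-fold lower, edgeR adjusted p = 0.00493). Against SS+NAC it was -0.51 as well (SE 0.110, edgeR adjusted p = 0.00418), and SS+NAC against control gave 0.00 (95% interval -0.24 to 0.24). With its effective length of 4957 bases, the length offset brought the difference from control to -0.23 (edgeR adjusted p = 0.202) and that from SS+NAC to -0.24 (edgeR adjusted p = 0.146). Both calls were lost with the offset, but one library decided the value against SS+NAC, which was -0.36 without SS+NAC replicate 1 (edgeR adjusted p = 0.012) and -0.10 without SS+NAC replicate 2 (edgeR adjusted p = 0.601).

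SESN1 encodes sestrin 1, which restrains mTORC1 and helps to regenerate peroxiredoxins. It is on the minus strand at chr6:108986437-109094819, and a p53 full site before the most downstream of its annotated starts is shown above. A gene on the other strand shares 363 of its exon bases. It stood at 3.0 and 3.62 CPM in the control, 3.44 and 2.92 CPM in SS, and 2.77 and 2.99 CPM in SS+NAC. The SS and control libraries overlapped. SS against control gave -0.06 (95% interval -0.50 to 0.37, edgeR adjusted p = 0.829, and -0.04 with the length offset), SS against SS+NAC 0.14 (-0.29 to 0.58, and 0.18 with the offset) and SS+NAC against control -0.21 (-0.64 to 0.23). Its paralog SESN2, a target of both p53 and ATF4, stood at 27.5 and 30.6 CPM in the control, 30.9 and 31.2 CPM in SS, and 91.3 and 85.2 CPM in SS+NAC. SESN2 was 3.04-fold higher in SS+NAC than in the control (log2 fold change 1.60, SE 0.0829, edgeR adjusted p = 2.36e-06), and the difference between the paralogs was not tested.

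GDF15, a secreted hormone of the TGF-beta superfamily that is released under cell stress and reduces appetite, was highest in the SS+NAC group. The gene (NCBI gene 9518) is on the plus strand at chr19:18374731-18389176, and its promoter with the TATAAA box is the third sequence shown above. It stood at 0.834 and 1.49 CPM in the control, 1.79 and 1.64 CPM in SS, and 2.57 and 3.57 CPM in SS+NAC, from 15 to 86 counts. The 3 groups did not overlap, and both SS+NAC libraries were above the other 4. SS+NAC against control gave a log2 fold change of 1.37 (SE 0.302, 2.58-fold, edgeR adjusted p = 0.0491), and SS was lower than SS+NAC with -0.84 (SE 0.279, 1.79-fold, edgeR adjusted p = 0.0334). SS against control gave 0.53 (95% interval -0.20 to 1.26, edgeR adjusted p = 0.226), and 0.20 with the length offset. The control libraries decided this value, which was 0.20 without control replicate 1 and 1.06 without control replicate 2, or -0.12 and 0.71 with the offset, and none of these was called. The call in SS+NAC against control is at the threshold: with the length offset the value was 1.35 (edgeR adjusted p = 0.0564), DESeq2 gave 1.36 (adjusted p = 0.0838), and without control replicate 1, the library with 15 counts, it was 1.04 (edgeR adjusted p = 0.277). It was also lost without either SS library (edgeR adjusted p = 0.0741 and 0.076) or SS+NAC replicate 2 (0.137). It was kept without control replicate 2 (1.88, edgeR adjusted p = 0.0489) and without SS+NAC replicate 1 (1.58, edgeR adjusted p = 0.00594), and the latter was also called with the offset (1.59, edgeR adjusted p = 0.00726). Against SS+NAC the difference was -1.15 with the offset (edgeR adjusted p = 0.0248) and -0.81 by DESeq2 (adjusted p = 0.119), and the edgeR call without the offset was lost without either SS library or SS+NAC replicate 2 (adjusted p from 0.0844 to 0.2). The call with the offset was lost without the same libraries (edgeR adjusted p = 0.0768, 0.166 and 0.12).

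The genes known to be raised by ATF4 and CHOP in the integrated stress response moved in the same direction as GDF15 in SS+NAC. All 12 of that list were called higher in SS+NAC than in the control, with a median log2 fold change of 1.02 beside -0.00 over all tested genes, of which 1.36% were called higher. DDIT4, an mTORC1 inhibitor, stood at 14.1 and 14.5 CPM in the control, 35.6 and 24.3 CPM in SS, and 65.2 and 83.7 CPM in SS+NAC, 5.21-fold above the control (edgeR adjusted p = 4.19e-05). SLC7A11, the cystine transporter subunit, stood at 32.8 and 36.0 CPM in the control, 22.8 and 23.2 CPM in SS, and 133 and 168 CPM in SS+NAC, 4.37-fold above the control (edgeR adjusted p = 2.36e-06). In SS against control 8 of the 12 were called higher and 2 lower (83.3% beside 40.0% of all tested genes), and 5 with the offset, all higher (41.7% beside 9.23%). Among them were the stress factor ATF3 (2.54-fold higher, edgeR adjusted p = 0.00029, and 0.00297 with the offset) and DDIT4 (2.09-fold higher, edgeR adjusted p = 0.00132, and 0.0286 with the offset). The 2 lower genes were SLC7A11 (-0.58) and the lipoprotein receptor VLDLR (-0.47), and neither was called with the length offset. In SS against SS+NAC 9 of the 12 were called, all lower in SS (75% beside 42.7%), and 11 with the offset (91.7% beside 14.4%). The part of ATF4 and CHOP in the level of GDF15 was not tested.

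Other p53 targets were grouped by role in lists of 8 arrest genes, 17 apoptosis genes (16 tested) and 18 genes of repair and metabolism. Together 16 of the 42 tested were called in SS against control, 13 higher and 3 lower, with a median of 0.16. Under the offset 5 were called, all higher. In SS against SS+NAC 10 were higher and 7 lower, 40.5% beside 42.7% of all tested genes. With the offset 4 were higher and 3 lower there, 16.7% beside 14.4%. In SS+NAC against control 5 were higher and none lower, 11.9% beside 2.01%. The share called in SS against control, 38.1%, stood beside 40.0% of all tested genes, and with the offset 11.9% beside 9.23%.

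Among the 8 arrest genes 4 rose in SS compared to the control and 1 fell (62.5% beside 40.0% of all tested genes), and 2 were called with the offset, both higher (25% beside 9.23%). GADD45A, a stress sensor that binds PCNA and CDK1, stood at 38.6 and 38.5 CPM in the control, 57.4 and 62.4 CPM in SS, and 66.1 and 71.2 CPM in SS+NAC. It was 1.55-fold higher in SS (edgeR adjusted p = 0.000352, and 0.0367 with the length offset) and 1.78-fold higher in SS+NAC (edgeR adjusted p = 0.000336). In SS against SS+NAC it was -0.20 (edgeR adjusted p = 0.0637), and with the offset it was called lower in SS (-0.52, edgeR adjusted p = 0.0023). SERTAD1, a CDK4 regulator, was 1.75-fold higher in SS than in the control (edgeR adjusted p = 0.000971, and 0.066 with the offset) and 1.92-fold higher than in SS+NAC (edgeR adjusted p = 0.000478), the latter also called with the offset (edgeR adjusted p = 0.0162). BTG1, the paralog of BTG2, was higher in SS by 0.43 and in SS+NAC by 0.48 on the log2 scale (edgeR adjusted p = 0.00277 and 0.0176), and in SS by 0.69 with the offset (edgeR adjusted p = 0.00114). SFN, a 14-3-3 protein that holds cells in G2, was higher in SS by 0.40, and E2F7, a repressor of E2F targets, was lower by 0.41, but neither was called with the offset.

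Among the apoptosis genes 7 of 16 rose in SS compared to the control and 1 fell (50.0% beside 40.0% of all tested genes), and 2 were called with the offset, both higher (12.5% beside 9.23%). BBC3 (PUMA), a BH3-only protein, stood at 4.50 and 4.21 CPM in the control and 7.32 and 6.49 CPM in SS (1.59-fold, edgeR adjusted p = 0.0147). Its SS+NAC libraries, at 6.38 and 8.72 CPM, lay on either side of both SS libraries and were not called against control (1.74-fold, edgeR adjusted p = 0.0543). BAX, the pore-forming protein of the mitochondrial outer membrane, was 1.42-fold higher in SS than in SS+NAC (edgeR adjusted p = 0.00124). NINJ1, a membrane protein of plasma membrane rupture, was higher in SS than in the control by 0.49 on the log2 scale (edgeR adjusted p = 0.00174, and 0.392 with the offset), and the death receptor gene TNFRSF10B was 1.23-fold lower in SS than in SS+NAC (edgeR adjusted p = 0.0336, and 0.472 with the offset). APAF1, the scaffold of the apoptosome, was 1.54-fold lower in SS than in the control (edgeR adjusted p = 0.000526). With the length offset BBC3 and APAF1 were at 0.43 and -0.23 in SS against control, and BAX at 0.01 in SS against SS+NAC. None of these was called. The genes called with the offset in SS against control were IER5 (0.37, edgeR adjusted p = 0.0273) and PIDD1 (0.36, edgeR adjusted p = 0.0368). PMAIP1 (NOXA), which antagonizes MCL1, was the apoptosis gene called in SS+NAC against control (1.56-fold higher, edgeR adjusted p = 0.0249).

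Of the 18 repair and metabolism targets 2 were higher and 1 lower in SS against control (16.7% beside 40.0% of all tested genes), and 1 was called with the offset, TIGAR, a fructose bisphosphatase that diverts sugar from glycolysis (higher by 0.65, edgeR adjusted p = 0.00413, 5.56% beside 9.23%). RPS27L, a ribosomal protein paralog that p53 raises, stood at 31.6 and 29.8 CPM in the control, 50.2 and 52.0 CPM in SS, and 31.1 and 36.2 CPM in SS+NAC (1.67-fold higher in SS than in the control, edgeR adjusted p = 0.000297). FDXR, a mitochondrial electron carrier reductase, was 1.30-fold higher (edgeR adjusted p = 0.0269), and ASCC3, a helicase of alkylation repair, was 1.57-fold lower (edgeR adjusted p = 0.000426). With the offset RPS27L was at 0.32 (edgeR adjusted p = 0.0656), FDXR at 0.19 and ASCC3 at -0.20. In SS+NAC the calls were SESN2 and SUSD6, the latter 1.52-fold above the control (edgeR adjusted p = 0.0412).

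The regulators around p53 fell on both sides of the control in SS. Of 21 genes, 5 were called higher and 8 lower, 61.9% beside 40.0% of all tested genes. The kinases ATM (1.80-fold lower) and ATR (1.78-fold lower), which sense DNA damage, were lower (edgeR adjusted p = 0.000238 and 0.00011). CDKN2A, the locus of p16 and of the MDM2 inhibitor ARF, was 1.48-fold higher and the checkpoint kinase CHEK2 1.25-fold higher (edgeR adjusted p = 0.000526 and 0.011). ATM (-0.25), CDKN2A (0.16) and CHEK2 (0.10) were not called with the offset. Under the offset 3 of the 21 were called, 14.3% beside 9.23% of all tested genes: ATR (-0.35) and the acetyltransferase EP300 (-0.27) were lower, and MDM4, the partner of MDM2, was higher by 0.81 (edgeR adjusted p = 0.000756). Without the offset MDM4 was at 0.28 (edgeR adjusted p = 0.0291). HIPK2, the kinase that TP53INP1 works with, was 1.64-fold lower in SS than in SS+NAC (edgeR adjusted p = 0.000156), but at -0.09 with the offset it was not called. In SS+NAC against control the one call was PPP1R13L (iASPP), an inhibitor of p53, which was 1.31-fold lower (edgeR adjusted p = 0.043).

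**Figure D4:**
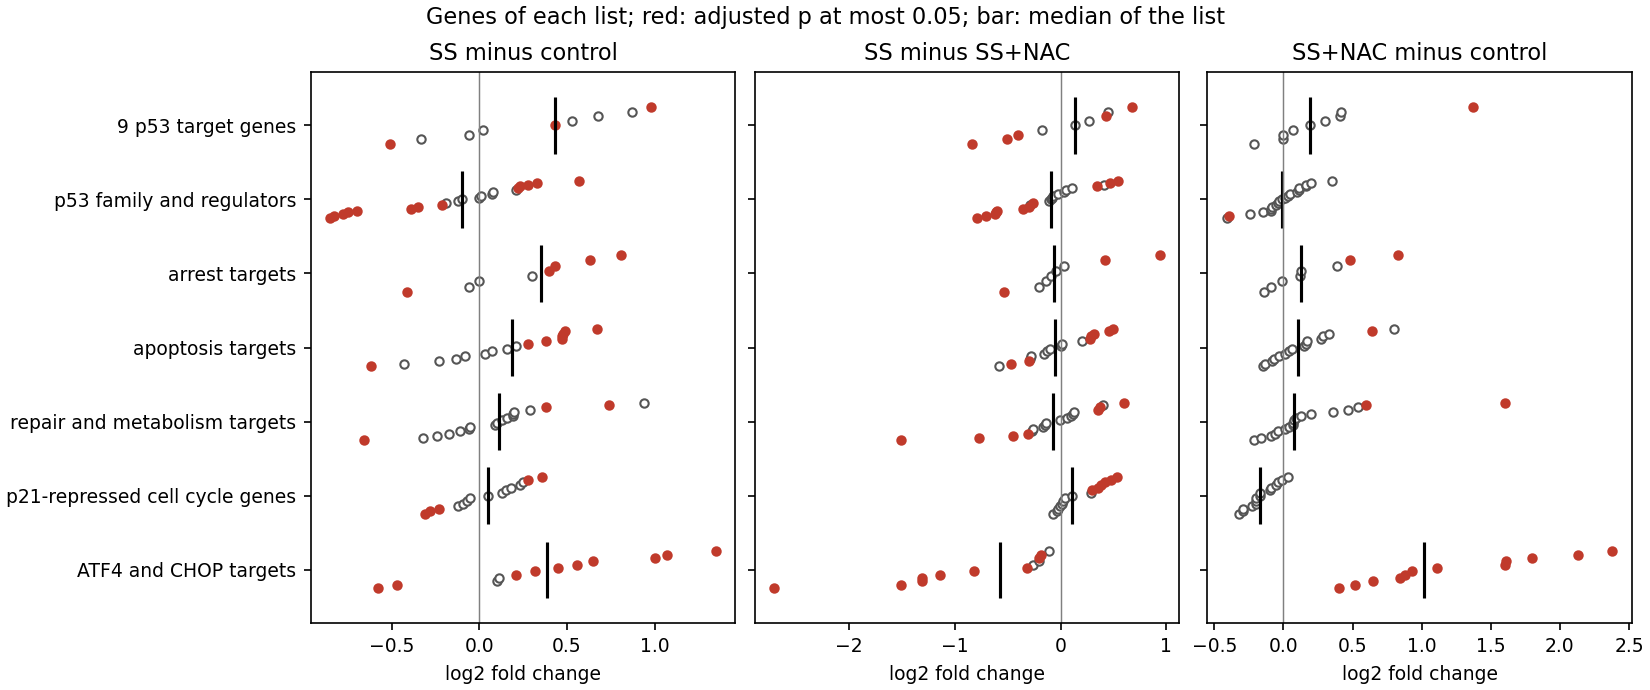
log2 fold changes of the 9 p53 target genes and of the other lists in the 3 comparisons (points, red where the edgeR adjusted p was at most 0.05, bars at the median, axes differ between panels). The 9 genes fell on both sides of 0 in SS minus control, whereas all 12 ATF4 and CHOP targets lay above 0 in SS+NAC minus control.

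The 5 members called without the offset were also set beside the 42 other p53 targets by the shape of their levels over the 6 libraries. The measure was the root mean square difference of the deviations of log2 CPM from each gene's own mean. TP53I3 was most like BAX (0.05 log2 units, Pearson r = 0.98) and CDKN1A most like RPS27L (0.16, r = 0.93). RRM2B was nearest to ASCC3 (0.12, r = 0.90) and ZMAT3 to the death receptor gene FAS (0.10, r = 0.86). The closest gene to GDF15 was GADD45A, though at a larger distance (0.37, r = 0.84). All of these values come from the same 6 libraries and share their length trend, and they are given as a description.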

How the data were processed

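Polyadenylated RNA of KHM-5M cells was sequenced in single-end reads in 6 libraries, 3 groups of 2, and mapped with HISAT2 2.0.4. Bowtie2 2.2.5 and RSEM 1.2.12 are also named in the submitters' processing notes. The expected counts in the deposited table were estimated by the authors with RSEM for each library. The authors' TPM and FPKM values in the same table are scaled for transcript length and depth. Its log2 fold changes, p-values and q-values are the authors' own comparisons with DESeq2, and neither these nor the 9 columns of group means were used.

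Expected counts were rounded, filtered with filterByExpr, scaled by TMM and tested with edgeR 4.0.16 (R 4.3.3), with all 6 libraries in 1 fit and Benjamini-Hochberg adjustment over 14005 genes. The standard error is the log2 fold change divided by the root of the F statistic. The length offset is a lowess curve (span 0.3) of each library's log2 CPM deviation on the log of effective length, which was derived from counts and FPKM. The common biological coefficient of variation was 6.74%, and precision of genes with few counts is limited by depth. P-values set the difference between 2 groups against a spread within groups that was estimated from all 6 libraries and moderated across genes. Each group had 2 libraries. The authors' threshold on Bonferroni-adjusted values, DESeq2 1.42.0, other size factors and filters, the compared libraries only, a replicate block and leaving out each library were tried as alternatives.

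The 9 genes, the other lists and the tests were chosen with earlier results of these data known. All 9 genes are described. From each other list, up to 2 called genes higher and 2 lower with the largest change and a mean of at least 1 CPM per comparison were to be named, and each such gene is named at least once. PIDD1, TIGAR, EP300 and MDM4 were named after their values were seen, as were BTG1 and IER5 in SS against control. Positions are from GENCODE release 29, and promoter sequences from RefSeq. Python 3.11.15 (pandas 2.3.3, numpy 2.4.6) was used for tables, and matplotlib 3.10.9 for plotting.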

Additional observations from a re-analysis of the deposited data

How the results depend on the processing

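No clear pairing by replicate number was seen, as the replicate 1 minus replicate 2 differences of the groups correlated at 0.113, -0.105 and -0.175. Such values cannot show whether same-numbered libraries were handled together. A replicate block left 3, 5 and 1 of the 9 genes called in SS against control, SS against SS+NAC and SS+NAC against control, as without it, and 35, 36 and 15 of the other list genes (44, 42 and 17 without), and 4857, 5136 and 211 of all genes (5609, 5985 and 282 without). With the length offset 2, 2 and 0 of the 9 were called, 13, 20 and 17 of the other list genes, and 1292, 2019 and 282 of all genes. The replicate block with the length offset gave 2, 2 and 0 of the 9, 8, 18 and 16 of the others, and 851, 1366 and 202 of all. Bonferroni adjustment left 0 of the 9 in each comparison, 4, 6 and 9 of the others, and 220, 191 and 40 of all. With the compared libraries only, 5, 4 and 0 of the 9 were called, and 6594, 5337 and 206 of all genes. DESeq2 called 2, 3 and 0 of the 9, and 4622, 4866 and 311 of all genes. It gave no adjusted p for GDF15 and TP53INP1 in SS against control, so these genes could not be called there. SS+NAC against control gave 0 calls of the 9 without the filter on low counts, and 3 of the 9 had an unadjusted p of at most 0.05 in the edgeR test. Leaving out each library gave 2 to 5, 2 to 5 and 0 to 1 calls of the 9, 27 to 51, 23 to 49 and 10 to 25 of the others, and 3118 to 6579, 3250 to 6339 and 98 to 1086 of all, the last without SS+NAC replicate 1. With the length offset as well, an alternative chosen after seeing the data, the ranges were 1 to 3, 0 to 4 and 0 to 1 of the 9. Of the others, SS against control then gave 4 without either control library, 4 and 5 without SS replicates 1 and 2, and 21 and 22 without SS+NAC replicates 1 and 2, SS against SS+NAC gave 18 without either control library, 11 and 8 without the SS libraries and 36 and 20 without the SS+NAC libraries, and SS+NAC against control gave 10 without either control library, 14 without either SS library and 29 and 16 without the SS+NAC libraries. The cause of these shifts was not tested.

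Some log2 fold changes changed sign. ZMAT3 turned to 0.18 in SS against control (0.19 with the block) and to 0.10 against SS+NAC with the length offset, and MDM2 to 0.24 against SS+NAC, which became a call at 0.26 without SS+NAC replicate 1. GDF15 in SS against control turned to -0.12 with the offset and without control replicate 1. In SS+NAC against control TP53I3 and RRM2B, at 0.00, came to -0.02 with other size factors and with DESeq2 and to -0.00 without the filter (RRM2B also with the replicate block), and TP53I3 to -0.01 with the offset. Leaving out 1 library gave ranges across 0 in SS against control for MDM2 (-0.04 to 0.09) and SESN1 (-0.19 to 0.11), in SS against SS+NAC for BTG2 (-0.07 to 0.82) and TP53INP1 (-0.16 to 0.89), and in SS+NAC against control for TP53I3 (-0.13 to 0.11), RRM2B (-0.15 to 0.14), ZMAT3 (-0.08 to 0.20) and TP53INP1 (-0.20 to 0.84). GDF15, BTG2, SESN1 and TP53INP1 had under 100 counts in each library. How far depth or the spread between libraries limits their values was not tested.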

Other observations

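Genes of the cell cycle that p21 is known to repress through the DREAM complex were listed as well. Of 15 such genes, 5 were called in SS against control, 2 higher and 3 lower, 33.3% beside 40.0% of all tested genes, with a median log2 fold change of 0.05 (-0.01 with the length offset). A share near that of all genes is no result about these 15. CDC20, an activator of the anaphase-promoting complex, stood at 369 and 389 CPM in the control and 426 and 549 CPM in SS, and was 1.29-fold higher in SS than in the control (edgeR adjusted p = 0.0449). CCNB2, a mitotic cyclin, was 1.22-fold higher (edgeR adjusted p = 0.00978), and the spindle checkpoint kinase gene BUB1 was 1.21-fold lower (edgeR adjusted p = 0.0218). FOXM1, a transcription factor of G2 and mitosis, was 1.24-fold lower in SS (edgeR adjusted p = 0.0218). Under the length offset edgeR called 0 of the 15 (9.23% of all tested genes were called), with 2 at an unadjusted p of at most 0.05, and DESeq2 without the offset called 5. In SS against SS+NAC 6 were called, all higher in SS (40.0% beside 42.7% of all tested genes, of which 19.6% were higher). With the offset 1 of the 15 was called (6.67% beside 14.4%), the mitotic cyclin CCNB1. It was 1.39-fold higher without the offset (edgeR adjusted p = 0.00265, and 0.0201 with the offset). In SS+NAC against control edgeR called 0 of the 15 (2.01% of all tested genes were called), with 5 at an unadjusted p of at most 0.05 and 1 called by DESeq2, and 14 of the 15 values were below 0.

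The deposited table marks 197 genes as the Hallmark p53 pathway, of which 186 were tested and 5 are among the 9 genes (BTG2, CDKN1A, MDM2, SESN1 and ZMAT3). In SS against control 60 were higher and 25 lower, 45.7% of those tested beside 40.0% of all tested genes. Under the offset 26 were called, 21 higher and 5 lower, 14.0% beside 9.23%. In SS against SS+NAC 54 were higher and 44 lower, 52.7% beside 42.7%, and with the offset 18 were higher and 24 lower, 22.6% beside 14.4%. In SS+NAC against control 20 were higher and 1 lower, 11.3% beside 2.01%.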
